A study of Mus musculus with 6 samples.

Results

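Regulated exocytosis was examined through 8 genes of the secretory vesicle fusion machinery: *Snap25*, *Stx1a*, *Vamp2*, *Unc13a*, *Syt1*, *Syt4*, *Syt7* and *Rab3a*. They were taken by gene identifier from a table of 47069 genes, and all 8 were in it. The table came from bulk RNA-seq of LβT2 cells, an immortalized mouse line derived from pituitary gonadotropes, at passage 14. Every library came from cells exposed to 2 nM gonadotropin-releasing hormone (GnRH) over 40 min, and no untreated cells are among them. The 3 fresh libraries came from trypsinized cells lysed directly in a guanidinium buffer, and the 3 RNA-Best libraries from trypsinized cells kept in that preservative at 4 °C, for which the methods give 4 days or more. The one comparison in this design is RNA-Best against fresh, which asks whether storage in the preservative leaves RNA levels as they were. The labels do not say whether the libraries of a group were separate cultures, so the p-values measure the spread between these libraries, which may be technical. In bulk RNA, fewer cells of a type and less RNA per cell cannot be told apart.

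Secretory cells release hormone by fusing vesicles with the plasma membrane. A vesicle SNARE, here VAMP2, zippers with syntaxin 1A and SNAP-25 at the target membrane, Munc13 proteins open syntaxin so that the bundle can form, and synaptotagmins couple fusion to calcium. Rab3 GTPases sit on vesicles before fusion, and NSF with its SNAP adaptors takes spent SNARE bundles apart. In gonadotropes this route carries the gonadotropins, and GnRH triggers it through calcium.

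Start site windows of 3 of these genes are shown because the genes mark the extremes of the data: *Stx1a* had the highest level per length of the 8, *Unc13a* the largest change, and *Syt1* almost no counts. Each window runs from 250 bases before to 50 after a RefSeq start on GRCm38.p6 and is written 5′ to 3′ on the strand of the gene. Capitals mark the GC box GGGCGG on either strand. The RefSeq table matched 4 of the 8 genes, the fourth being *Rab3a*, and gave more than 1 start for *Syt1*, both shown, and for *Rab3a*.
Stx1a, chr5:135023232-135023531, plus strand: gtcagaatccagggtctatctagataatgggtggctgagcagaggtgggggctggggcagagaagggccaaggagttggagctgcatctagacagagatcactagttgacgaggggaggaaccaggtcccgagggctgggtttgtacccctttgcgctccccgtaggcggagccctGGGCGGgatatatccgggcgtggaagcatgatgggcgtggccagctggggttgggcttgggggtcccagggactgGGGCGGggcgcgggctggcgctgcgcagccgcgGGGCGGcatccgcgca
Unc13a, chr8:71671708-71672007, minus strand: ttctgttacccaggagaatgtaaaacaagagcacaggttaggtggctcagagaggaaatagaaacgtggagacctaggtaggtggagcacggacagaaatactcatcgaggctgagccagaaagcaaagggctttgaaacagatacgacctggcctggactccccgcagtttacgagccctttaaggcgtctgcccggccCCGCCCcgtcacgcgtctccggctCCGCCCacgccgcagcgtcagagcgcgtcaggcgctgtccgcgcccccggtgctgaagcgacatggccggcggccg
Syt1 start 1, chr10:109010926-109011225, minus strand: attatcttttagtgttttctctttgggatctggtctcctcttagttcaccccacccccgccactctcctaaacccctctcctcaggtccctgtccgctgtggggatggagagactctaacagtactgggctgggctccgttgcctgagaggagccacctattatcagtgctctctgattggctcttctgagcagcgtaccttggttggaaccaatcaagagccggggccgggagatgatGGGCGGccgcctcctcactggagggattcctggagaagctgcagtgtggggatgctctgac
Syt1 start 2, chr10:109009062-109009361, minus strand: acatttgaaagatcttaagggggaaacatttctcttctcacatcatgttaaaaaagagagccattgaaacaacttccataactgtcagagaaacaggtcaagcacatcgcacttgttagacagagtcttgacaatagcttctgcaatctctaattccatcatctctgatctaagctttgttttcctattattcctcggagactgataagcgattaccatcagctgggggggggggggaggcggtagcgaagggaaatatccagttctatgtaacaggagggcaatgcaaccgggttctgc

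The *Stx1a* window held 3 GC boxes, that of *Unc13a* 2, the first *Syt1* window 1 and the second 0, and 35.7% of all 32841 windows held at least 1. GC content was 66.3% for *Stx1a*, 61.3% for *Unc13a* and 56.7% and 44% for the *Syt1* windows, against a median of 52.7%. The CpG count was 19, 27, 8 and 6 in the same order, against a median of 7. The core TGACG of the cyclic AMP response element, searched on both strands, occurred 3 times in the *Unc13a* window, 1 time in that of *Stx1a* and in neither *Syt1* window, and 20.8% of all windows held it. CCAAT occurred 2 times in the first *Syt1* window and in none of the other 3, and 37.4% of all windows held it on either strand. No TATAAA or TGANTCA was found in these 4 windows on either strand, with 13.6% and 7.81% of all windows holding them. The matches did not overlap each other. They describe letters in these windows and were not tied to any level below.

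Depth was 14477304 to 47438746 counts in fresh and 4909418 to 11999363 in RNA-Best libraries, so every fresh library was deeper. A count of 0 therefore allows a level of up to 0.0632 CPM (counts of a gene for each 1000000 counts of its library) in the library with most counts and 0.611 CPM in that with fewest, taken as 3 counts and for counting error only. Of 9 gonadotrope markers 8 had a mean of at least 1 CPM, *Fshb* being at 0 in every library, and their sum was 3746 to 3780.4 CPM in fresh and 3200.0 to 3285 CPM in RNA-Best. Growth hormone, prolactin and *Pomc* were at or near 0. The ranges of the groups also stood apart for summed thyrotrope markers, at 0.789 to 1.04 CPM in fresh and 1.22 to 2.28 CPM in RNA-Best, and for corticotrope and melanotrope markers, at 13.9 to 16.2 and 11.2 to 13.8 CPM. The latter sum is nearly all *Crhr1*, whose own ranges overlapped at 13.5 to 16.1 and 11.0 to 13.8 CPM and which did not pass (edgeR adjusted p = 0.189). Of 7 endothelial, fibroblast and blood markers *Pecam1* and *Cdh5* were above 1 CPM, and the list summed to 189.7 to 192 CPM in fresh and 194.5 to 207.5 CPM in RNA-Best. These 2 genes went opposite ways, *Pecam1* lower at a log2 fold change of -0.15 (edgeR adjusted p = 0.015) and *Cdh5* higher at 0.12 (edgeR adjusted p = 0.00228). The part of these marker levels in the results below was not tested. A filter on low counts left 14736 genes, of which 50.8% passed edgeR's quasi-likelihood test at an adjusted p of 0.05, 26.0% higher and 24.8% lower in RNA-Best, and the CPM ranges of the groups did not overlap for 57.5%. The change between groups also moved with exonic length: the median log2 fold change of tested genes was -0.17 up to 3 kb and 0.32 over 10 kb. Each passing change of an exocytosis gene is therefore given also with a length offset, in which a smooth fit of level on exonic length is removed from each library, and 40.8% of genes then passed, 15.6% higher and 25.2% lower. Adjusted p are from edgeR over all tested genes unless another tool is named.

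Of the 8 genes, 7 passed the filter and *Syt1* did not. *Snap25*, *Unc13a* and *Syt7* were higher in RNA-Best and *Stx1a*, *Syt4* and *Rab3a* lower, while *Vamp2* did not pass the test. These 6 of 7 stand beside a background of 50.8%, and with so few genes nothing is read from the gap. With the length offset 3 of 7 passed, beside 40.8%, *Unc13a* higher and *Stx1a* and *Syt4* lower. Groups did not overlap in CPM for 5 of 7, beside 57.5% of all tested genes. The largest change of the 7 was that of *Unc13a*, at 1.38-fold.

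**Figure D1:**
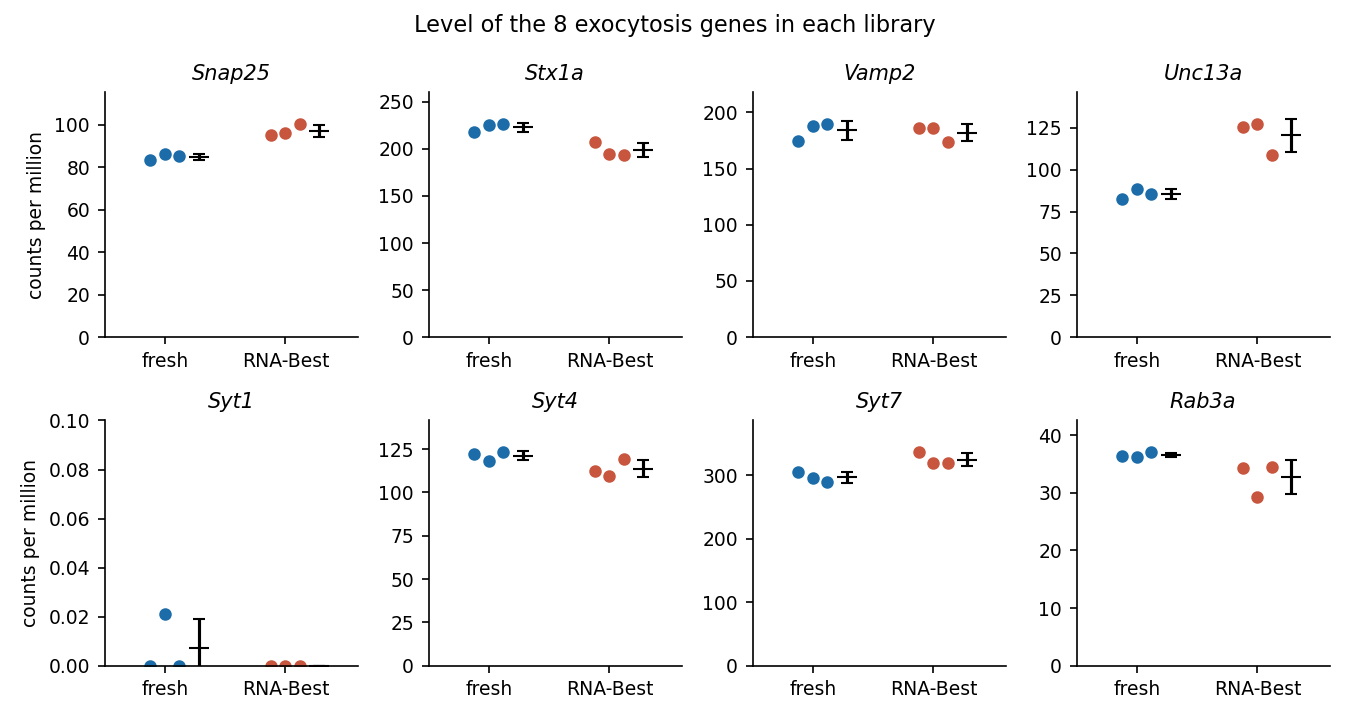
Level of each of the 8 exocytosis genes in CPM (vertical axis, scaled separately for each gene) in 3 fresh and 3 RNA-Best libraries. Coloured points are libraries, and the black mark and bar beside them give the mean ± SD. The RNA-Best points of *Unc13a* lie at 108.9 to 127.3 CPM, above the fresh points at 82.3 to 88.2, while those of *Vamp2* overlap and *Syt1* has 1 point above 0.

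*Stx1a* (chromosome 5, 135023482 to 135051100) encodes syntaxin 1A, the target membrane SNARE that binds VAMP2 and SNAP-25. It had 218, 225 and 226 CPM in the fresh libraries and 208, 195 and 194 CPM in the RNA-Best libraries. All 3 RNA-Best libraries were below all fresh ones. The log2 fold change was -0.18 (SE 0.0324, edgeR adjusted p = 1.98e-05), a level that fell by 11.6%, and -0.12 with the length offset (edgeR adjusted p = 0.00261). An offset for GC content, built in the same way, gave -0.08 (edgeR adjusted p = 0.0228). *Stx4a*, a syntaxin of constitutive and regulated fusion in many cells, was lower, with a log2 fold change of -0.21 (edgeR adjusted p = 2.87e-05), and of -0.14 with the length offset (edgeR adjusted p = 0.00342).

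*Snap25* (chromosome 2, 136713453 to 136782428) supplies a pair of helices to the same bundle. It had 83.5, 86.3 and 85.3 CPM in fresh and 95.1, 96.3 and 100.4 CPM in RNA-Best. The groups did not overlap. Its log2 fold change was 0.19 (SE 0.0387, edgeR adjusted p = 0.000124), but 0.05 with the length offset (edgeR adjusted p = 0.352) and 0.0032 with the GC offset (edgeR adjusted p = 0.958), so the call ended under both. Per kb of exon union *Snap25* was the third of the 4 family members, with 16.6% ± 0.212 (n = 3, SD) of the family level in fresh and 19.0% ± 0.655 (n = 3, SD) in RNA-Best (exact permutation test, two-sided, p = 0.1, or 0.14 adjusted over the 7 shares tested, where 3 libraries against 3 cannot give less than 0.1). Its place rests on the length used: per kb of longest coding transcript, chosen as a measure after the data were seen, it was the second, with 32.7% ± 0.33 (n = 3, SD) in fresh and 36.7% ± 0.925 (n = 3, SD) in RNA-Best, and undivided by length also the second, with 30.5% and 33.9%. *Snap47*, a divergent relative and the highest of the 4, took 50.3% ± 0.378 (n = 3, SD) and 45.6% ± 0.608 (n = 3, SD), and *Jmjd4* on the other strand covers 11.58% of its exonic bases. Per kb, *Snap25* stood at 0.15 ± 0.00147 (n = 3, SD) of *Stx1a* in fresh and 0.192 ± 0.0119 (n = 3, SD) in RNA-Best, with no overlap (exact permutation test, two-sided, p = 0.1, also 0.1 when adjusted over the 4 ratios compared), but at 0.39 and 0.502 per kb of longest coding transcript. These ratios take no length offset, under which *Snap25* changed by 0.05 and *Stx1a* by -0.12. Over all 11 listed target membrane SNAREs, 9 were tested, 2 were higher and 3 lower (beside 26.0% and 24.8% of all tested genes), and the median log2 fold change was 0.06, against -0.01 for all tested genes.

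*Vamp2* (chromosome 11, 69088490 to 69092384), the vesicle SNARE of neurons and endocrine cells, was the one tested gene of the 8 that did not pass. It had 174, 188 and 189.7 CPM in fresh and 186, 186 and 173 CPM in RNA-Best. The groups overlapped. In edgeR the log2 fold change was -0.03 (SE 0.0362, edgeR adjusted p = 0.469), and its sign turned with the GC offset and without RNA-Best replicate 3. *Vamp2* was the highest of the 6 vesicle SNAREs found in the table, with 36.1% ± 0.833 (n = 3, SD) of their level per kb in fresh and 38.9% ± 0.872 (n = 3, SD) in RNA-Best (exact permutation test, two-sided, p = 0.1, adjusted 0.14), followed by *Vamp3* and *Vamp8*. *Vamp8*, an endosomal and secretory granule SNARE, was lower at 59.7 ± 3.48 CPM (n = 3, SD) in RNA-Best against 76.1 ± 1.88 CPM (n = 3, SD) in fresh, a log2 fold change of -0.38 (edgeR adjusted p = 9.87e-09) and of -0.30 with the length offset (edgeR adjusted p = 1.38e-06). *Vamp1*, the close relative of *Vamp2*, was higher at 0.43 (edgeR adjusted p = 4.24e-07), or 0.18 with the length offset (edgeR adjusted p = 0.0219). Of 5 tested vesicle SNAREs 1 was higher and 2 lower, where all tested genes had 26.0% and 24.8%, with a median log2 fold change of -0.03.

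**Figure D2:**
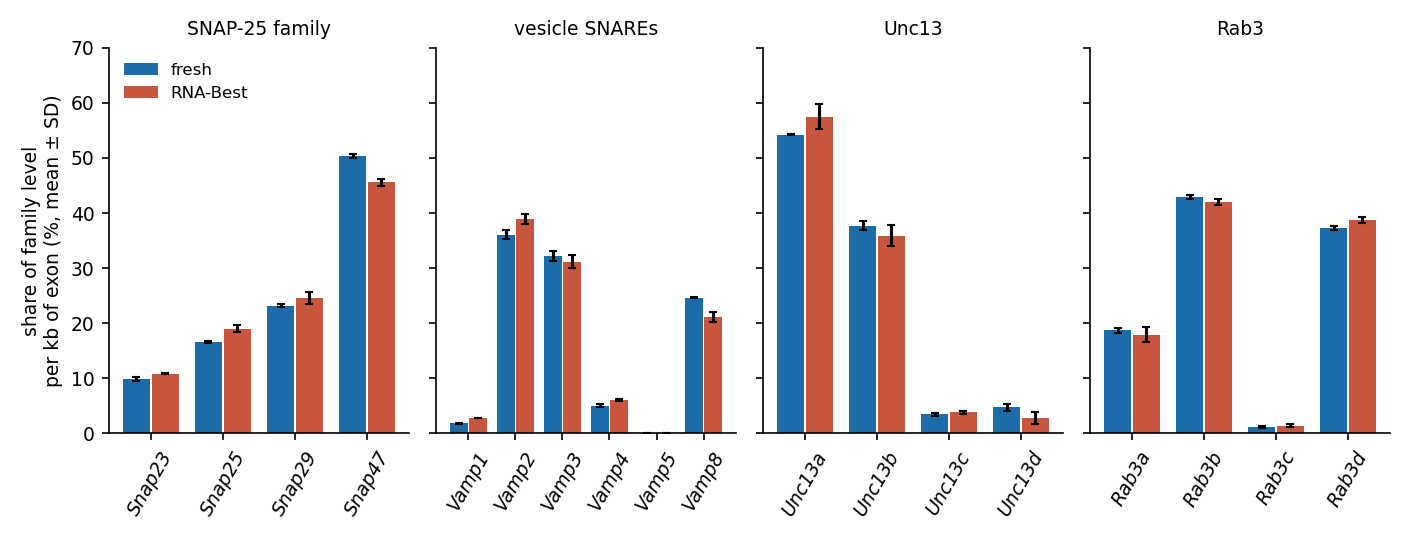
Share of each gene in the summed level per kb of exon of its family (vertical axis, percent), for 4 families, with bars for the mean and error bars for the SD of 3 fresh and 3 RNA-Best libraries. *Vamp2* and *Unc13a* hold the highest share of their families in both groups on this scale, and *Snap25* and *Rab3a* come after a pair of relatives. Per kb of longest coding transcript, or undivided by length, only *Snap47* lies above *Snap25*, and undivided by length *Unc13b* lies above *Unc13a*.

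Synaptotagmins ranged from no counts to the level of *Syt7*. *Syt1* (chromosome 10, 108497650 to 109010982), the fast calcium sensor of central synapses, had 0, 1 and 0 counts in the fresh and 0 in each RNA-Best library. That is 1 of 102451254 counts in fresh, for which the exact Poisson interval at 95% reaches 0.0544 CPM, and 0 of 25681967 in RNA-Best, for which it reaches 0.144 CPM. Both limits cover counting error only, since reads of amplified libraries are not independent molecules, and the floor of 3 counts used above would be 0.117 CPM in RNA-Best. *Syt1* was not detectable above the level of single reads at this depth. Of the 17 synaptotagmins, 11 passed the filter, and *Syt6*, *Syt8*, *Syt10*, *Syt15* and *Syt16* had 0 to 4 counts over all 6 libraries.

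**Figure D3:**
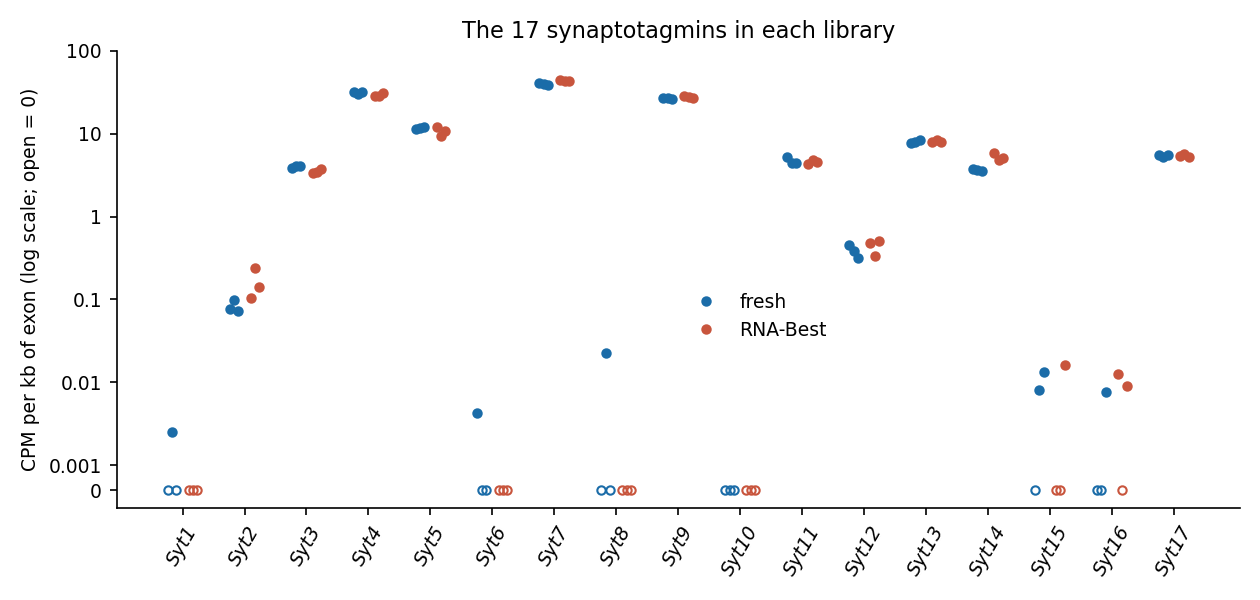
Level of the 17 synaptotagmins in CPM per kb of exon (vertical axis, log scale) in each of the 3 fresh and 3 RNA-Best libraries. Open circles on the lowest line mark libraries with no count. *Syt7*, *Syt4* and *Syt9* lie highest, and *Syt1* has 1 library above 0.

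*Syt7* (chromosome 19, 10389090 to 10453180), a sensor of high calcium affinity found on dense-core granules, had 305, 296 and 288 CPM in fresh and 336, 319 and 319 CPM in RNA-Best. Each RNA-Best library was above each fresh one. The fitted log2 fold change was 0.12 (SE 0.0301, edgeR adjusted p = 0.00161), but -0.05 with the length offset (edgeR adjusted p = 0.152), so the direction turned and the call ended. All tested genes had a median of -0.04 under that offset. With the GC offset it was 0.17 (edgeR adjusted p = 8.89e-06). The call also ended when low genes were kept (edgeR adjusted p = 0.084). *Syt7* took the highest share of the synaptotagmin level per kb, 29.2% ± 0.596 (n = 3, SD) in fresh and 31.3% ± 0.475 (n = 3, SD) in RNA-Best (exact permutation test, two-sided, p = 0.1, adjusted 0.14).

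*Syt4* (chromosome 18, 31437808 to 31447406), a granule and endosomal synaptotagmin whose first C2 domain lacks a calcium ligand, had 122, 118 and 123 CPM in fresh and 112, 109 and 119 CPM in RNA-Best. Fresh replicate 2 lay below RNA-Best replicate 3, so the groups overlapped. RNA-Best against fresh gave a log2 fold change of -0.09 (SE 0.0373, edgeR adjusted p = 0.0446), and -0.09 with the length offset (edgeR adjusted p = 0.0469). The call was near the threshold and ended with limma voom (adjusted p = 0.0537), with DESeq2 (adjusted p = 0.117), with its size factors in edgeR (adjusted p = 0.0516), with every library thinned to the depth of the smallest (edgeR adjusted p = 0.576) and without fresh replicate 1 or 3 or RNA-Best replicate 1 or 2 (edgeR adjusted p = 0.104, 0.0776, 0.19 and 0.175). With the GC offset it was -0.25 (edgeR adjusted p = 4.94e-07). *Syt4* took 23.0% ± 0.411 (n = 3, SD) of the family level in fresh and 21.1% ± 0.934 (n = 3, SD) in RNA-Best, with p = 0.1 and an adjusted 0.14 in the exact permutation test. An antisense gene covers 14.54% of its exonic bases, and without a stated strand setting reads of both cannot be told apart. Per kb, *Syt7* stood at 1.27 ± 0.0457 (n = 3, SD) times *Syt4* in fresh and 1.49 ± 0.0864 (n = 3, SD) in RNA-Best (exact permutation test, two-sided, p = 0.1, adjusted 0.1). The ratio takes no length offset, under which *Syt7* changed by -0.05 and *Syt4* by -0.09.

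Together *Syt4*, *Syt7* and *Syt9*, the last a calcium sensor of endocrine granules, held 71.9% ± 0.343 (n = 3, SD) of the synaptotagmin level per kb in fresh and 72.5% ± 0.221 (n = 3, SD) in RNA-Best. *Syt9* itself had 105.9 and 110.2 CPM and did not pass, with a log2 fold change of 0.04 (edgeR adjusted p = 0.387). Of the 11 tested synaptotagmins 3 were higher and 1 lower, beside 26.0% and 24.8% of all genes, and with the length offset 1 and 1, beside 15.6% and 25.2%. *Syt14*, which lacks calcium binding, was higher at 0.50 (edgeR adjusted p = 3.85e-10) and at 0.19 with the length offset (edgeR adjusted p = 0.00208). *Syt2*, the sensor most like *Syt1*, had 0.635 ± 0.109 CPM (n = 3, SD) in fresh and 1.24 ± 0.535 CPM (n = 3, SD) in RNA-Best. Its log2 fold change of 0.75 (edgeR adjusted p = 0.0469) was 0.58 with the length offset (edgeR adjusted p = 0.148) and did not pass there, with DESeq2 (adjusted p = 0.128) or without fresh replicate 1 or 3 or RNA-Best replicate 2 or 3 (edgeR adjusted p = 0.112, 0.0662, 0.262 and 0.116).

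Other calcium and C2-domain factors included the highest gene of all the lists per kb, *Rph3al*, which encodes the Rab effector Noc2 of endocrine granules. It had 379.6 ± 0.596 CPM (n = 3, SD) in fresh and 339.7 ± 4.85 CPM (n = 3, SD) in RNA-Best, a log2 fold change of -0.17 under both settings (edgeR adjusted p = 3.29e-06 and 7.05e-06). The CAPS priming proteins of dense-core granules, *Cadps* and *Cadps2*, were higher at 0.22 and 0.19 (edgeR adjusted p = 6.93e-07 and 1.54e-05). With the length offset their direction turned, to -0.15 for *Cadps* (edgeR adjusted p = 0.000294) and -0.05 for *Cadps2* (edgeR adjusted p = 0.196), where the median of all tested genes was -0.04. Of 7 tested genes of this list 2 were higher and 1 lower, against 26.0% and 24.8% of all tested genes, and with the length offset 0 and 2, against 15.6% and 25.2%.

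*Unc13a* (chromosome 8, 71624417 to 71671757) encodes Munc13-1, which primes vesicles by opening syntaxin. It had 82.3, 88.2 and 85.2 CPM in fresh and 125, 127 and 109 CPM in RNA-Best. The groups did not overlap, and RNA-Best replicate 3 lay closest to the fresh libraries. On the log2 scale the change was 0.46 (SE 0.044, edgeR adjusted p = 6.17e-11), or 0.14 with the length offset (edgeR adjusted p = 0.00896), so a smaller change in the same direction remained. With the GC offset it was 0.52 (edgeR adjusted p = 6.67e-13). With 12623 exonic bases it was the longest of the 8, and 955 of the 1244 tested genes over 10 kb were higher in RNA-Best. Its exons overlap *Colgalt1* on the other strand over 3.92% of their bases.

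Within the Unc13 family *Unc13a* took 54.2% ± 0.106 (n = 3, SD) of the level per kb in fresh and 57.5% ± 2.21 (n = 3, SD) in RNA-Best (exact permutation test, two-sided, p = 0.1, adjusted 0.14). Undivided by length it took 42.9% and 45.7%, below *Unc13b*. *Unc13b*, also over 10 kb, was higher at 0.31 (edgeR adjusted p = 6.38e-09) and lower with the length offset at -0.16 (edgeR adjusted p = 0.000268), and its difference from *Unc13a* was not tested. Relative to *Stx1a* per kb, *Unc13a* stood at 0.0807 ± 0.00171 (n = 3, SD) in fresh and 0.128 ± 0.00964 (n = 3, SD) in RNA-Best (exact permutation test, two-sided, p = 0.1, adjusted 0.1). No length offset enters this ratio, and under the offset *Unc13a* changed by 0.14 and *Stx1a* by -0.12.

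Of 16 tested priming and SNARE assembly factors 8 were higher and 1 lower (all tested genes: 26.0% and 24.8%), with a median log2 fold change of 0.09, and with the length offset 3 were higher and 3 lower (all tested genes: 15.6% and 25.2%). *Stxbp5l*, the tomosyn relative that sequesters syntaxin and SNAP-25, had the largest log2 fold change of the tested listed genes and went from 8.68 ± 0.478 CPM (n = 3, SD) in fresh to 17.2 ± 2.65 CPM (n = 3, SD) in RNA-Best. Its log2 fold change was 0.89 (edgeR adjusted p = 4.43e-10) and 0.69 with the length offset (edgeR adjusted p = 2.53e-07). *Unc13c* was higher at 0.53 (edgeR adjusted p = 0.00242) but did not pass with the length offset (0.32, edgeR adjusted p = 0.073) or with thinned libraries (edgeR adjusted p = 0.277). *Cplx2*, a complexin that clamps the SNARE bundle, was the highest of the list per kb over the 6 libraries. It did not pass, with 164.7 ± 6.84 CPM (n = 3, SD) in fresh and 172.4 ± 6.94 CPM (n = 3, SD) in RNA-Best. In RNA-Best alone *Rims3* lay above it, at 36.9 against 35.0 CPM per kb.

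*Rab3a* (chromosome 8, 70754679 to 70758677), the Rab3 form best known from synapses, had 36.4, 36.3 and 37.0 CPM in fresh and 34.3, 29.3 and 34.5 CPM in RNA-Best. The groups did not overlap, and RNA-Best replicate 2, the shallowest library with 144 counts of the gene, was the lowest. On the log2 scale it changed by -0.14 (SE 0.0571, edgeR adjusted p = 0.0379). It was -0.07 with the length offset (edgeR adjusted p = 0.378) and -0.10 without RNA-Best replicate 2 (edgeR adjusted p = 0.203), and it did not pass without fresh replicate 1, 2 or 3 or RNA-Best replicate 1 (edgeR adjusted p = 0.0525, 0.0513, 0.0524 and 0.057), with DESeq2 (adjusted p = 0.12), with the GC offset (edgeR adjusted p = 0.237) or with thinned libraries (edgeR adjusted p = 0.0672). Its share of the Rab3 level per kb was 18.7% ± 0.505 (n = 3, SD) in fresh and 17.9% ± 1.36 (n = 3, SD) in RNA-Best, a difference that did not exceed the spread (exact permutation test, two-sided, p = 0.5, adjusted 0.583).

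*Rab3b*, a Rab3 form of endocrine cells, was the highest of the Rab3 and Rab27 list per kb over the 6 libraries. In RNA-Best alone *Rab27a* lay above it, at 34.8 against 34.5 CPM per kb. *Rab3b* had 132.8 ± 3.29 CPM (n = 3, SD) in fresh and 121.4 ± 1.54 CPM (n = 3, SD) in RNA-Best, a log2 fold change of -0.15 (edgeR adjusted p = 0.00061), or -0.13 with the length offset (edgeR adjusted p = 0.00249). It did not pass with thinned libraries (edgeR adjusted p = 0.123). *Rab3gap2*, a subunit of the complex that switches Rab3 off, was higher at 0.28 (edgeR adjusted p = 2.05e-06), and this was 0.0026 with the length offset (edgeR adjusted p = 0.975). *Iars2* on the other strand covers 18.83% of its exonic bases. *Rab27b* was higher at 0.18 (edgeR adjusted p = 0.0231) and -0.09 with the length offset (edgeR adjusted p = 0.278), and did not pass without fresh replicate 2 or RNA-Best replicate 3 (edgeR adjusted p = 0.154 and 0.17). All 11 genes of this list were tested, 4 of them higher and 2 lower, and with the length offset 0 and 4, where all tested genes had 26.0% and 24.8%, and 15.6% and 25.2% with the offset.

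**Figure D4:**
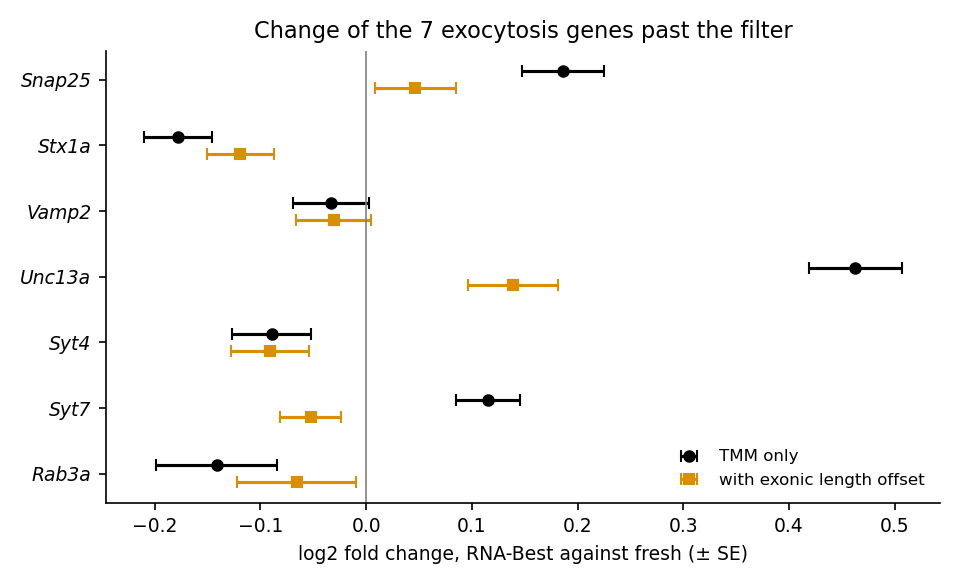
Log2 fold change of RNA-Best against fresh (horizontal axis) with its SE, from edgeR on 3 libraries a group, for the 7 exocytosis genes past the filter. Black circles use TMM scaling and orange squares the length offset as well. *Unc13a* moves from 0.46 to 0.14 and *Syt7* from 0.12 to -0.05, while *Vamp2* stays at -0.03 and *Syt4* at -0.09.

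Genes that recycle or tether SNAREs were tested as further lists. The shares of all tested genes to set beside their counts are 26.0% higher and 24.8% lower, and 15.6% and 25.2% with the length offset. Of the 4 recycling factors 3 were higher and 0 lower, and with the length offset 1 and 1. *Nsf*, the ATPase that takes the SNARE bundle apart, was higher at 0.12 (edgeR adjusted p = 0.00614), and -0.08 with the length offset (edgeR adjusted p = 0.0503). *Napa*, its main adaptor and the highest of that list per kb, had a log2 fold change of -0.04 (edgeR adjusted p = 0.319), while *Napb*, the neuronal form, was higher at 0.40 (edgeR adjusted p = 0.000127) and at 0.25 with the length offset (edgeR adjusted p = 0.0145). In the exocyst, which tethers vesicles to the membrane, 5 of 9 subunits were higher and 0 lower, but with the length offset 1 was higher and 3 lower. *Exoc2* was higher at 0.25 and *Exoc5* at 0.23 (edgeR adjusted p = 0.00256 and 8.72e-06), and with the length offset *Exoc2* did not pass (0.10, edgeR adjusted p = 0.235) and *Exoc5* was lower at -0.19 (edgeR adjusted p = 0.000276). *Exoc7*, the highest subunit per kb, did not pass (edgeR adjusted p = 0.626).

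Of 10 tested vesicle membrane proteins 1 was higher and 4 lower, beside the same 26.0% and 24.8%, and with the length offset 0 and 6, beside 15.6% and 25.2%. The synaptogyrins *Syngr2*, the highest of them per kb, and *Syngr3* were lower at -0.22 and -0.34 (edgeR adjusted p = 3.72e-06 and 4.32e-06), and at -0.12 and -0.26 with the length offset (edgeR adjusted p = 0.00514 and 0.00037). SNAREs of Golgi, ER and endosomal transport, listed for comparison, had 3 higher and 10 lower of 20 tested, and 3 and 11 with the length offset, to be read against the same shares. Among these *Ykt6*, the highest per kb, was lower at -0.19, *Stx8* lower at -0.26 and *Stx17* higher at 0.34 (edgeR adjusted p = 1.81e-05, 0.000322 and 0.000105). With the length offset these were -0.14, -0.41 and 0.24 (edgeR adjusted p = 0.000706, 7.77e-07 and 0.00566).

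Over all lists 122 of 124 genes were found in the table, *Vamp7* and *Stx10* not being analysed here, and 102 passed the filter. Of these 32 were higher and 24 lower, 54.9% beside the 50.8% of all tested genes, and with the length offset 11 were higher and 36 lower, beside 15.6% and 25.2% of all tested genes. Direction went with length. Of the 14 listed genes of up to 3 kb 12 were lower and 0 higher, and of the 18 over 10 kb 13 were higher and 0 lower. *Stx1a* and *Rab3a* belong to the former class, in which 2229 of all 5482 tested genes were lower and 370 higher. *Unc13a* belongs to the latter, in which 955 of all 1244 tested genes were higher and 26 lower. Across the 102 genes, which share the same 6 libraries and are not independent replicates, log2 fold change and exonic length had a Spearman coefficient of 0.67. After the offset it was 0.049, which is no separate result, since the offset removes the trend with length in these same libraries. What lies behind the relation with length was not tested.

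**Figure D5:**
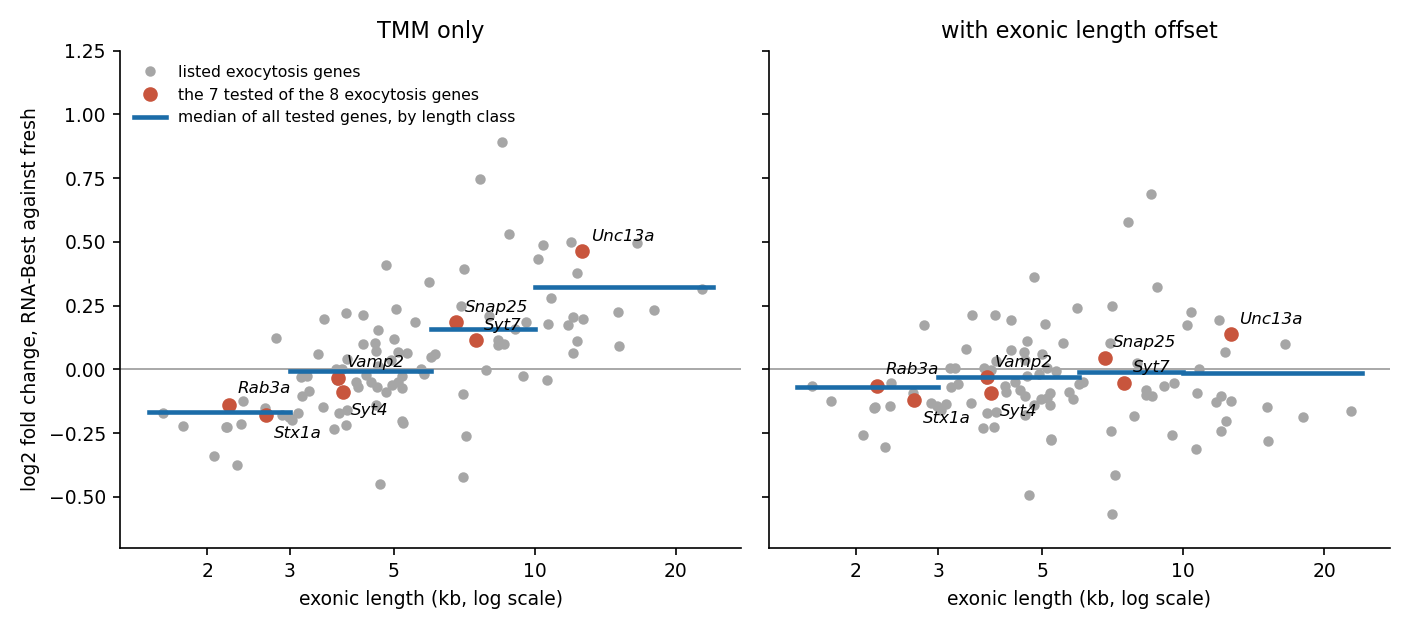
Log2 fold change of RNA-Best against fresh (vertical axis) by exonic length in kb (horizontal axis, log scale) for 102 listed exocytosis genes, with TMM scaling on the left and the length offset on the right. Red points are the 7 tested of the 8 exocytosis genes, grey points the other listed genes, and blue lines the medians of all tested genes in 4 length classes. The medians climb from -0.17 to 0.32 on the left. They lie between -0.07 and -0.01 on the right, where the offset removes the trend with length by construction.

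Levels per kb ranked the 8 genes alike in both groups. In fresh libraries the order was *Stx1a* at 83.7 ± 1.76, *Vamp2* at 48.3 ± 2.19, *Syt7* at 39.6 ± 1.09, *Syt4* at 31.1 ± 0.638, *Rab3a* at 16.4 ± 0.177, *Snap25* at 12.5 ± 0.21 and *Unc13a* at 6.75 ± 0.231 CPM per kb (n = 3 each, SD), with *Syt1* last. No neighbours overlapped there. In RNA-Best libraries *Rab3a* at 14.7 ± 1.32 and *Snap25* at 14.3 ± 0.412 CPM per kb (n = 3 each, SD) overlapped, and no other neighbours did. The place of *Snap25* rests on the length used, since its longest coding transcript has 2116 bases of the 6791 in the union of its exons. By coding transcript it had 40.2 CPM per kb in fresh and 46.0 in RNA-Best, above *Syt4* and *Rab3a*, and 26 of the 28 pairs of genes kept their order.

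For 6 of the tested genes the listed gene with the most alike pattern over the 6 libraries was found by the root mean square difference of mean-centred log2(CPM + 1), among the tested listed genes. For *Syt7* this was *Nsf* at 0.0162, for *Syt4* *Stx12* at 0.0257, for *Snap25* *Rab3gap1* at 0.0268 and for *Stx1a* *Snap47* at 0.0344. *Rab3a* was nearest to *Ykt6* at 0.0408 and *Vamp2* to *Napa* at 0.0411. None of these nearest genes was another of the 8.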

How the data were processed

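Levels of RNA were measured in 6 libraries of LβT2 cells. The authors prepared mRNA libraries, aligned single reads with STAR 2.5.1b to mm10 (GRCm38) and counted them per GENCODE gene with featureCounts 1.5.0-p1, per the submitters' processing notes, and the deposited values are estimated counts, not scaled for library size. Some reads were divided, since 9.36% to 16.3% of a library's values were not whole to within 0.001. Strand and sharing settings are not given in the sources used here, and parts of counts occur in *Vamp2*, *Unc13a* and *Syt7*.

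Groups came from the labels. Counts were rounded and tested with the quasi-likelihood test of edgeR 4.0.16 (R 4.3.3, TMM factors 0.994 to 1.01, filterByExpr with a minimum count of 10, Benjamini-Hochberg threshold 0.05). CPM used the column totals, and levels per kb the union of exons in a GENCODE release that is a newer annotation of that assembly, in which 46488 identifiers were found. Length and GC offsets were loess fits with span 0.5 per library, of each gene's deviation from its mean over the 6 libraries. Shares and ratios were compared by exact permutation tests, without the length offset. Each ratio shown sets a gene that passed as higher over a gene that passed as lower, so its shift repeats those calls. DESeq2 1.42.0, limma 3.58.1 voom, filters, unrounded counts, thinning to the smallest library, a replicate block and leaving out single libraries were alternatives. Pairs of libraries had a chi-square of 1.82 to 2.21 per gene in fresh, 1.08 to 1.29 in RNA-Best and 9.77 to 17.3 between groups, so none was counted as deposited more than once. On counts simulated for RNA-Best against fresh over 14593 genes, edgeR recovered 62% of genes changed 1.2-fold, 82% at 1.5-fold, 84% at 2-fold and 98% at 4-fold, with 8 false calls. That simulation changed 200 genes, 50 at each fold, and held no trend with length. In the data 50.8% of genes passed, so these rates need not hold there.

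The 8 genes and the lists, written out by family and role, were chosen with earlier results of these data known. Named beside the 8 are, per list, the gene with the highest mean level per kb over the 6 libraries and up to 2 passing genes with the largest change and no overlap of the groups. *Vamp3*, *Snap47*, *Syt9*, *Unc13b*, *Pecam1*, *Cdh5*, *Crhr1* and the synaptotagmins near 0 were named after their values were seen. One listed gene, and the results that need it, are not reported here. Genes nearest in pattern come from the same lists. Marker lists of other pituitary cells gave 0 of 4 somatotrope and lactotrope, 1 of 3 thyrotrope, 1 of 5 corticotrope and melanotrope and 1 of 4 folliculostellate and stem cell genes at a mean of at least 1 CPM.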

Additional observations from a re-analysis of the deposited data

How the results depend on the processing

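With 3 libraries a group, permutation tests cannot pass 0.05. The calls of *Rab3a* and *Syt2* ended without the shallowest library, RNA-Best replicate 2, among others, and were then -0.0959 and 0.521 (edgeR adjusted p = 0.203 and 0.262). The number of the 8 genes that passed was 6, and 3 with the length offset and 3 with the replicate block and length offset. It was 4 to 6 with single libraries left out, and 4 or 5 with DESeq2, DESeq2 size factors, limma voom, no filter, thinning or the GC offset. All genes called stayed between 5301 and 7637, and listed genes between 46 and 56. Keeping low genes moved the median over all genes to a log2 fold change of -0.06, and *Syt7* then did not pass (edgeR adjusted p = 0.084). The length offset moved that median to -0.0396. Calls of other named genes also ended with no filter for *Syt2*, *Rab27b* and *Nsf* (edgeR adjusted p = 0.106, 0.139 and 0.168), with the GC offset for *Nsf*, *Exoc2* and *Exoc5* (edgeR adjusted p = 0.0655, 0.0727 and 0.416) and for *Rab27b* with DESeq2 (adjusted p = 0.0981) or thinning (edgeR adjusted p = 0.0751), while *Napa* passed with no filter (-0.0876, edgeR adjusted p = 0.0359).

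The replicate numbers did not pair the libraries (correlation of deviations -0.00844 to 0.0121), and with the replicate block 7472 genes, 55 listed genes and 6 of the 8 passed. Signs turned with the length offset and with the block and length offset, in that order, for *Syt7* (-0.0523, -0.0512), *Cadps* (-0.149, -0.148), *Cadps2* (-0.0545, -0.066), *Nsf* (-0.0827, -0.0838), *Exoc5* (-0.188, -0.20), *Rab27b* (-0.0924, -0.122) and *Cplx2* (-0.0187, -0.00186), and with the length offset also for *Unc13b* (-0.165) and *Rab3gap1* (0.176 to -0.126, edgeR adjusted p = 0.00515). With the GC offset they turned for *Vamp2* (4.47e-05), *Rab27b* (-0.0132), *Napa* (0.0162) and *Exoc7* (0.0481), with no filter for *Cplx2* (-0.0103), and without RNA-Best replicate 3 for *Vamp2* (0.0101, with -0.0743 to 0.0101 over single libraries left out). By longest coding transcript, a length added after seeing the data, the change in family share was 3.95 points for *Snap25*, and undivided by length it was 3.37 points for *Snap25*, 1.53 for *Vamp2* and 1.51 for *Syt7*, and with thinned libraries -1.13 for *Syt4* and 1.51 for *Syt7*. The cause of these reversals and shifts was not tested.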
